A study of Mus musculus with 6 samples.

Results

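Mitochondrial ribosomal protein genes encode the proteins of the mitoribosome, the ribosome inside mitochondria. They were taken as every gene symbol in the count tables of whole mouse muscle that begins with Mrpl or Mrps followed by a digit, leaving out symbols that end in -ps. The rule found 77 genes of the 24421 listed, 48 with an Mrpl symbol (large subunit) and 29 with an Mrps symbol (small subunit), and no symbol had to be left out as a pseudogene. RNA-Seq was made from gastrocnemius-plantaris (GP) muscle of mice, with B6C3F1 as the labelled strain background, aged 5 months and 3 months past tamoxifen, with 3 libraries labelled Ctrl and 3 labelled cKO, each from 1 mouse. By their labels, mice of the Ctrl group carry the floxed allele of Net39, a nuclear envelope gene, on both chromosomes (Net39 fl/fl) and no Cre. Mice labelled cKO carry, again by the labels, the same floxed alleles plus HSACreERT2, a Cre recombinase that tamoxifen activates and that the human skeletal actin promoter drives in muscle fibres, so the other cells of the muscle keep the gene. All 6 mice are thus labelled with the floxed alleles and the same age and time after tamoxifen, while the counts of Net39 itself, given with the libraries, go against which group is labelled cKO.

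Mitochondria keep a small genome of their own, whose messages all encode subunits of the respiratory chain and ATP synthase. The mitoribosome translates these messages. Its RNAs are transcribed from the mitochondrial genome, while its proteins are encoded in the nucleus, made in the cytosol and imported, so that a mitoribosome draws on both genomes. Some of its proteins descend from those of bacterial ribosomes and others are found in mitochondria only. Muscle fibres are rich in mitochondria, and slow fibres more so than the fast fibres that make up most of GP muscle.

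Total counts ranged from 33860001 to 48839910 per library. Net39, listed under its older symbol Ppapdc3, was counted 310, 321 and 217 times in Ctrl-labelled libraries and 5365, 4340 and 6080 times in cKO-labelled ones. The deleted gene was thus low in the Ctrl-labelled libraries and high in the cKO-labelled ones (log2 fold change 4.22, SE 0.17, adjusted p = 0.000161), which goes against the labels. The labels were kept as given, and every direction below is given for the groups as labelled. The markers of muscle fibres defined the tissue in all 6 libraries, with 5 of 5 measured, 3 called higher in the cKO-labelled libraries (Ckm, Myh4 and Tnnt3) and a summed level of 76500 to 101000 CPM, the counts scaled to a common library size, in the Ctrl-labelled ones and 131000 to 176000 in the cKO-labelled ones. Slow-fibre markers summed to 7400 to 12300 CPM in the Ctrl-labelled libraries and to 287 to 2870 in the cKO-labelled ones, and 3 of 6 were called. Immune markers summed to 97.6 to 113 and 39.3 to 59.9 CPM, and 3 of 5 were called. Of the fibro-adipogenic markers, 2 of 5 were called higher in the Ctrl-labelled libraries (Col3a1 at -1.06 and Lum at -0.72). Another 2 of the 5 lay above 0, up to 0.20, and were not called. The summed fibro-adipogenic levels overlapped, at 1010, 984 and 1180 CPM in the Ctrl-labelled libraries and 650, 1200 and 868 CPM in the cKO-labelled ones. The 3 Schwann cell markers had log2 fold changes from -0.79 to -0.30 with 0 called. Among 3 heart markers, the atrial genes Nppa and Myl7 stayed under 1 CPM in every library, while Myh6, which slow fibres can express too, ranged from 177 to 659 CPM in the Ctrl-labelled libraries and from 0.25 to 71.3 CPM in the cKO-labelled ones. The part of these cell types in the values below was not tested, and in bulk muscle fewer cells of a type cannot be told apart from less RNA per cell.

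Of the 10 genes that passed the test, the promoters of 4 are shown first (Mrps12, the one higher in the Ctrl-labelled libraries, and the 3 with the highest log2 fold change among those higher in the cKO-labelled ones), because the upstream sequence of mitoribosome genes is known to hold sites for factors that serve many nuclear genes of mitochondria. Each stretch is 300 bases, 250 before and 50 after the first RefSeq start listed for the gene (GRCm38.p6), written 5′ to 3′ on the strand of the gene. Capitals mark matches, on either strand, to CCGGAAG (the core bound by ETS factors such as GABP, also called NRF2), GCATGCG (part of the site of NRF1) or AAGATGG (YY1). Mrps12, the gene with the largest difference, lies on the minus strand (chr7:28741772-28742071). Mrpl32, also on the minus strand (chr13:14612988-14613287), holds the NRF1 letters 5 times. Mrpl23 (chr7:142532782-142533081) and Mrpl30 (chr1:37890227-37890526) lie on the plus strand and hold none of the 3 cores. By its GENCODE position the Mrpl23 gene starts at 142532686, so the window shown lies inside it and the bases before that start were not searched.
Mrps12: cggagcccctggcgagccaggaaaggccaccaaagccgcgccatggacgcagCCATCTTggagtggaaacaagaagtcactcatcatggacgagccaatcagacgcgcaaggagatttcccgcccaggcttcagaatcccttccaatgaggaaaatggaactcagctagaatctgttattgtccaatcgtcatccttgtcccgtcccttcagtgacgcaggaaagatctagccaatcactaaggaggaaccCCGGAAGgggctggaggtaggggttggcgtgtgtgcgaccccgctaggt
Mrpl32: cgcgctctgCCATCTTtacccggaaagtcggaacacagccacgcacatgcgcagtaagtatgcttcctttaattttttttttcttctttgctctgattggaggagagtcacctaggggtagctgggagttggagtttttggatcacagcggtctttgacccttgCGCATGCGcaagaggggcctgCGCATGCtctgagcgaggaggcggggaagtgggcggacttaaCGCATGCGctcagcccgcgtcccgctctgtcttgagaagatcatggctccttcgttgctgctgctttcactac
Mrpl30: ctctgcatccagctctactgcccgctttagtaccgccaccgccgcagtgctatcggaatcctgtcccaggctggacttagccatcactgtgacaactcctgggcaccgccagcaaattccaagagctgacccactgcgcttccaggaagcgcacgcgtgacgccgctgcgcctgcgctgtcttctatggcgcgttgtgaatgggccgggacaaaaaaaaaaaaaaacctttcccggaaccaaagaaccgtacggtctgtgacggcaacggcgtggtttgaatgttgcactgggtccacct
Mrpl23: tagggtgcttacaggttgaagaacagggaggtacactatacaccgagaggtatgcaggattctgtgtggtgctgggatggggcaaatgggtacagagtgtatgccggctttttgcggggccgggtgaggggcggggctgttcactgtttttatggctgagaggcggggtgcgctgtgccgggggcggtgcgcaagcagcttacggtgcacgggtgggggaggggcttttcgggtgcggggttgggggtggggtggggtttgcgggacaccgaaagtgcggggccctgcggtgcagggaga

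In Mrps12 the ETS match began at position 2 of the transcript, and the YY1 match lay at -198 from the start. Mrpl32 had NRF1 matches beginning at -86, -85, -65, -23 and -22, of which the 2 adjoining pairs are palindromes read on both strands, and a YY1 match at -241. In Mrpl23, the Sp1 letters GGGCGG were present at -122 and -69, and Mrpl30 held none of the motifs searched.

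A promoter was listed for 68 of the 77 genes. ETS letters were present in 24 of these (35.3%), against 9.12% of all 27025 promoters and 11.9% of 17491 protein-coding ones. NRF1 letters were present in 8 (11.8%, against 3.64% of all and 4.48% of protein-coding promoters) and YY1 letters in 13 (19.1%, against 6.48% and 6.37%). At least 1 of the 3 was present in 36 of the 68 promoters, 52.9% against 17.7% of all and 20.7% of protein-coding promoters. The median GC content was 58.1% in the 68 promoters and 56.3% in protein-coding ones. Among other motifs, Sp1 (GGGCGG) was in 50% against 46.3% of protein-coding promoters, CCAAT in 39.7% against 39.0%, the E-box CACGTG in 7.35% against 7.90%, and the TATA box letters TATAAA in 5.88% against 13.3%. In 2 promoters matches of different motifs overlapped. Among the 9 genes that passed the test and had a promoter, 2 held the ETS letters, 1 the NRF1 letters and 5 the YY1 letters. In Mrpl1, Mrpl23, Mrpl36 and Mrps10 the window begins past the GENCODE start of the gene, so these counts depend on the start listed. A match in such a window is a description of its letters and does not show that a factor was bound in these muscles.

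All 77 genes were expressed well enough to be tested, with 356 to 7653 counts per gene and library. Of these, 10 (13.0%) passed an adjusted p of 0.05 in edgeR's quasi-likelihood test, which is below the 24.4% of all 14180 genes tested. The cKO-labelled libraries were higher in 9 of the 10 (11.7% of the genes, against 12.6% of all genes tested) and the Ctrl-labelled libraries in 1 (1.30%, against 11.8%). None of the 77 reached a fold change of 2 together with an adjusted p under 0.05, which 6.05% of all genes tested did, and the largest fold change was 1.35. The median log2 fold change of the 77 genes was 0.07 with 52 above and 25 below 0, beside a median of -0.02 over all genes tested, and it was -0.18 beside -0.27 when libraries were scaled by total counts alone. The split about 0 was 9 above and 68 below with total counts alone, and 39 and 38 without the third Ctrl-labelled library. Taken without sign, the median was 0.13 for the 77 genes and 0.27 for all genes, and the median SE was 0.09 and 0.14. The groups did not overlap in 22 genes that were higher in the cKO-labelled libraries and in 5 that were higher in the Ctrl-labelled ones, 28.6% and 6.49%, against 22.0% and 21.9% of all genes tested.

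With TMM factors, the 95% interval of the fold change lay within 1.5-fold in either direction for 74 of the 77 genes (96.1%), against 45.2% of all genes tested, and within 2-fold for all 77, against 72.7%. The intervals of Mrps12, Mrpl23 and Mrpl35 reached past 1.5-fold. These intervals hold for that scaling: with total counts alone, the log2 fold change of 61 of the 77 genes (79.2%) lay outside its own interval. The median log2 fold change was 0.07 over the 50 large-subunit genes (by structure) and 0.08 over the 26 small-subunit genes.

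**Figure D1:**
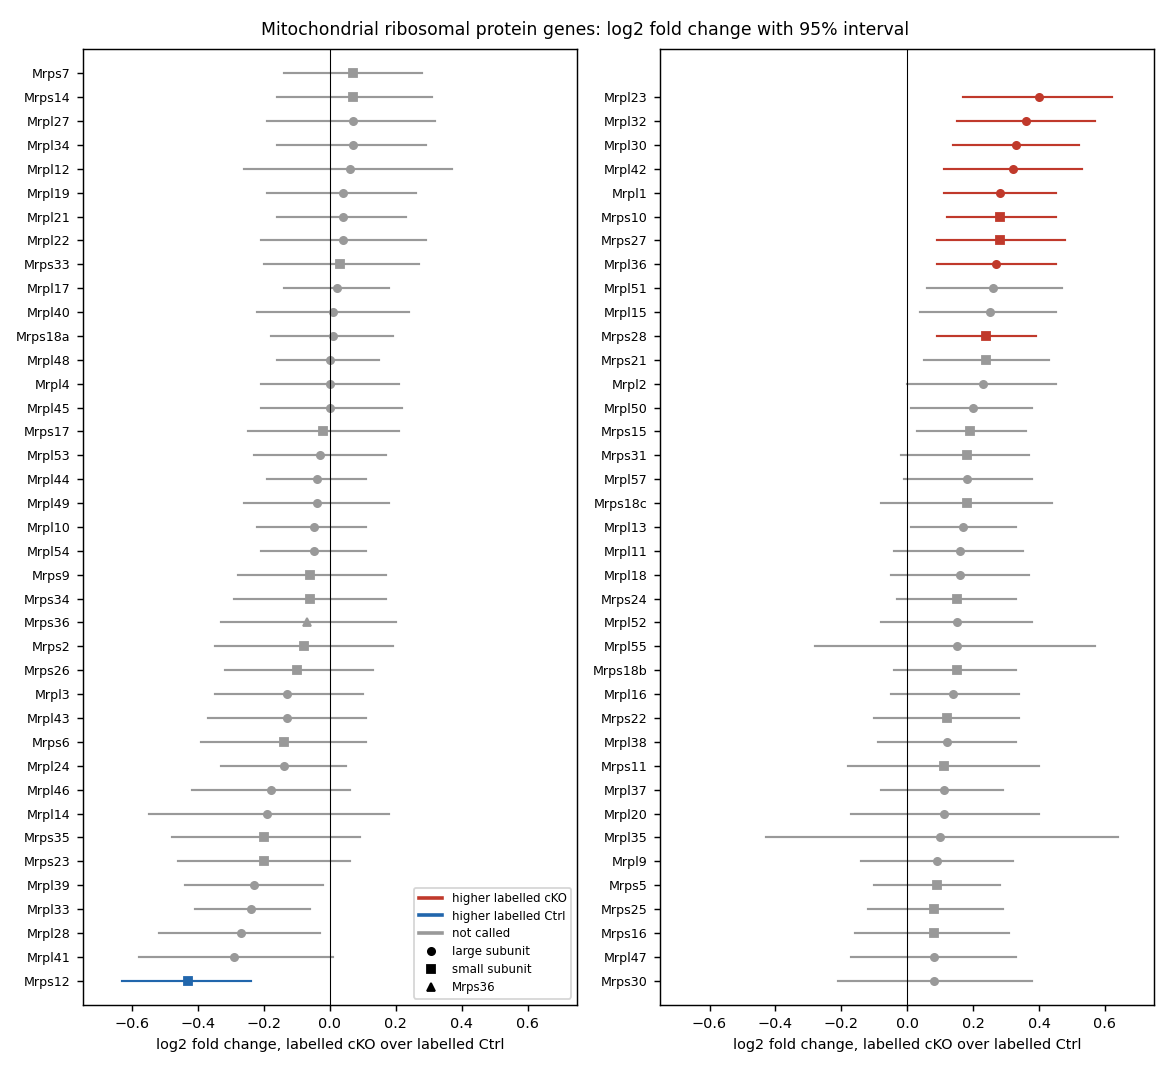
Log2 fold change (labelled cKO over labelled Ctrl, x axis) of each of the 77 mitochondrial ribosomal protein genes (y axis) with its 95% interval; circles are large-subunit proteins, squares small-subunit proteins and the triangle Mrps36. The 9 genes in red and Mrps12 in blue passed an adjusted p of 0.05, and most intervals of the others cross 0.

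Mrps12 was the only one of the 77 genes called higher in the Ctrl-labelled libraries. It encodes uS12m, the protein of the decoding centre of the small subunit. Its levels were 31.6, 34.5 and 30.9 CPM in the Ctrl-labelled libraries (mean 32.4 ± 1.91 SD, n = 3) and 23.7, 22.7 and 25.5 CPM in the cKO-labelled ones (24.0 ± 1.41). Every cKO-labelled library was below every Ctrl-labelled library. The log2 fold change was -0.43 (SE 0.08, adjusted p = 0.0118). Mrps12 was called in 12 of 12 other fits, with adjusted p from 0.000882 to 0.0497 and log2 fold changes from -0.69 to -0.38. The gene lies on chromosome 7 from 28739641 to 28741820 on the minus strand, with 2 exons and 417 coding bases in its main transcript. Sars2, the seryl-tRNA synthetase of mitochondria, starts 172 bases away on the other strand. Its levels were 16.1, 17.3 and 15.3 CPM in the Ctrl-labelled libraries and 16.3, 15.4 and 15.0 in the cKO-labelled ones, which overlapped (log2 fold change -0.06, SE 0.09, adjusted p = 0.652).

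The next lowest large-subunit genes did not pass the test. Mrpl41, a protein found in mitochondria only, had 30.6, 30.2 and 23.1 CPM in the Ctrl-labelled libraries and 21.9, 24.8 and 22.2 in the cKO-labelled ones (log2 fold change -0.29, SE 0.12, adjusted p = 0.136). Mrpl28 (bL28m) had 56.0, 55.2 and 45.0 CPM and 46.1, 42.8 and 40.5 CPM (-0.27, SE 0.10, adjusted p = 0.10). In both genes the third Ctrl-labelled library lay within the range of the cKO-labelled ones. Mrpl33 (bL33m, with 195 coding bases) had 59.6, 60.6 and 53.3 CPM against 49.2, 49 and 49 CPM (-0.24, SE 0.07, adjusted p = 0.0554), and Mrpl39 had 28.4, 26.0 and 24.4 against 21.2, 23.6 and 22.5 CPM (-0.23, SE 0.09, adjusted p = 0.101). Neither of these overlapped between the groups. Without the third Ctrl-labelled library, Mrpl28, Mrpl33, Mrpl41 and Mrps23 were called too, which gave 5 genes (6.49%) higher in the Ctrl-labelled libraries, against 10.6% of all genes tested in that fit.

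Of the 9 genes higher in the cKO-labelled libraries, 5 encode large-subunit proteins with a bacterial homologue. Mrpl23 (uL23m, a protein near the exit of the nascent chain) rose from 40.3, 42.5 and 36.8 CPM (39.9 ± 2.90) to 55.0, 46.8 and 55.6 CPM (52.5 ± 4.92), a log2 fold change of 0.40 (SE 0.10, adjusted p = 0.0256). Mrpl32 (bL32m, a protein cleaved in the matrix by the m-AAA protease before it enters the subunit) had 22.9, 23.0 and 22.3 CPM in the Ctrl-labelled libraries and 30.0, 26.1 and 31.6 CPM in the cKO-labelled ones (0.36, SE 0.09, adjusted p = 0.0276). In both genes the second cKO-labelled library was the lowest of its group and still above the Ctrl-labelled ones. Mrpl30 (uL30m) had 73.6, 75 and 69.1 CPM against 95.8, 83.7 and 93.4 CPM (0.33, SE 0.08, adjusted p = 0.0275). Mrpl1 (uL1m, of the stalk beside the exit site for tRNA) had 27.6, 29.2 and 28.7 CPM against 33.3, 34 and 36.5 CPM (0.28, SE 0.07, adjusted p = 0.0292). Mrpl36 (bL36m) had 22.8, 23.5 and 20.9 CPM against 27.2, 26.4 and 27.5 CPM (0.27, SE 0.08, adjusted p = 0.0422). The groups were separate in each of these genes.

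The sixth large-subunit gene was Mrpl42, a protein found in mitochondria only and the one with the highest level per kilobase of its main transcript among the 77. It had 137, 147 and 127 CPM in the Ctrl-labelled libraries (137 ± 10) and 179, 159 and 174 CPM in the cKO-labelled ones (170 ± 10.5), a log2 fold change of 0.32 (SE 0.09, adjusted p = 0.0410). Of 20 large-subunit genes of this class it was the only one called (5%), beside 5 of 30 (16.7%) with a bacterial homologue and 12.6% of all genes tested called higher in the cKO-labelled libraries. The difference between the classes was not tested.

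The small subunit gave 3 of the 9. Mrps10 (uS10m, in the head of the subunit) had 24.5, 24.6 and 25.4 CPM in the Ctrl-labelled libraries and 30.6, 28.7 and 31.2 CPM in the cKO-labelled ones (0.28, SE 0.07, adjusted p = 0.0285). Mrps27, a pentatricopeptide-repeat protein found in mitochondria only, had 23.2, 23.9 and 25.7 CPM against 27.4, 31.3 and 29.9 CPM (0.28, SE 0.08, adjusted p = 0.0468). Mrps28 (bS1m) had 34.5, 35.8 and 34.1 CPM against 40.5, 41.8 and 40.9 CPM (0.24, SE 0.06, adjusted p = 0.0347), though with total counts alone its log2 fold change was -0.02. The spread within groups was small in all 3 genes, and the groups did not overlap. Mrps27 shares 24.2% of its exon bases with 6430562O15Rik on the opposite strand, so reads of the pair could not be told apart unless strand was used in counting, and Mrpl36 shares 30 exon bases with Ndufs6. In all, 32 of the 77 genes share exon bases with another gene.

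**Figure D2:**
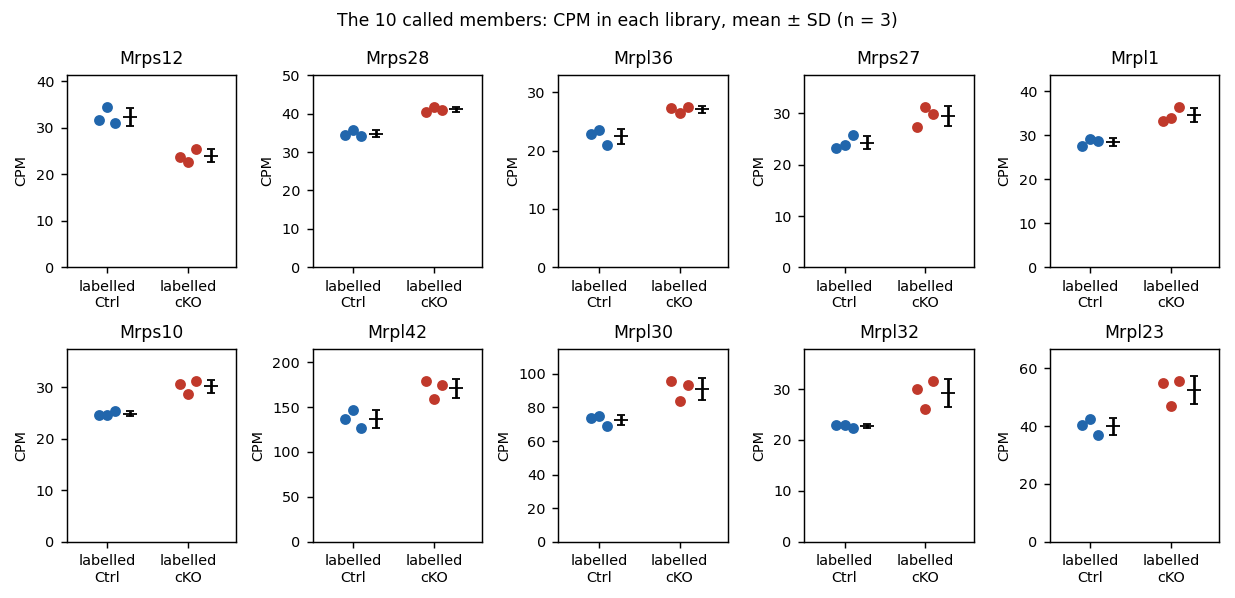
CPM (y axis, from 0) in each of the 6 libraries for the 10 called genes, with mean ± SD (n = 3) beside the points; blue is labelled Ctrl and red labelled cKO. With the TMM factors used here the groups do not overlap in any of the 10, and Mrps12 is the only one higher in the Ctrl-labelled libraries.

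The calls of the 9 genes did not hold with fewer libraries. Without mouse 1 or 2 of those labelled Ctrl, or mouse 1 or 3 of those labelled cKO, 0 of the 9 passed the test, while the calls over all genes in that direction fell from 1786 to between 766 and 896. Without mouse 3 labelled Ctrl 3 of them did, and without mouse 2 labelled cKO 5, with 1703 and 1777 called over all genes. With no filter on low counts, Mrpl36 (adjusted p = 0.0541), Mrps27 (0.0553) and Mrps28 (0.0507) were not called, and with a minimum of 10 counts per library Mrps27 was not (0.0506). Their log2 fold changes moved little in these fits, from 0.34 to 0.46 for Mrpl23 and from 0.21 to 0.26 for Mrps28. With scaling by total counts alone, in place of the TMM factors (trimmed mean of M values, which set each library by the bulk of its genes), 0 genes were called higher in the cKO-labelled libraries, against 4.75% of all genes tested, and 18 (23.4%) higher in the Ctrl-labelled ones, against 28.7% of all, and the log2 fold changes of the 9 were between -0.02 (Mrps28) and 0.14 (Mrpl23). With TMM factors 53 of the 77 lay above the median of all genes tested. A change of scaling shifts all genes by nearly the same amount, so a like count with total counts is fixed by the arithmetic and adds no support.

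The 3 cKO-labelled libraries were close in the sum over the 77 genes, and the Ctrl-labelled ones were not. The summed level was 3176, 3237 and 2814 CPM in the Ctrl-labelled libraries (3076 ± 228) and 3259, 3165 and 3303 CPM in the cKO-labelled ones (3242 ± 70.5). The highest over the lowest was 1.15 in the former and 1.04 in the latter. Over the same cKO-labelled libraries, Myh7, the slow myosin, differed 12.9-fold. The large-subunit sum was 2.46 to 2.51 times the small-subunit sum in the Ctrl-labelled libraries and 2.46 to 2.60 times in the cKO-labelled ones, which overlapped. With totals alone the sums were 3535, 3511 and 3039 CPM against 2818, 3109 and 2976 CPM, in which the mean of the Ctrl-labelled libraries was the higher (3362 ± 279 against 2968 ± 146).

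The third Ctrl-labelled library stood apart for these genes. It had the lowest value of all 6 libraries in 50 of the 77 (64.9%), while 15.4% of all genes tested were lowest there, and its median deviation from the mean of each gene was -0.15 on the log2 scale. The other 5 libraries had medians from 0.02 to 0.06 on that scale. Nuclear-encoded subunits of the respiratory chain and ATP synthase showed more of the same, with 69 of 80 (86.2%) lowest in that library and a median deviation of -0.23. For cytosolic ribosomal proteins the count was 27 of 77 (35.1%) with a median of -0.07. Without that library the median log2 fold change of the 77 genes was 0.00 and that of the respiratory chain list -0.04.

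**Figure D3:**
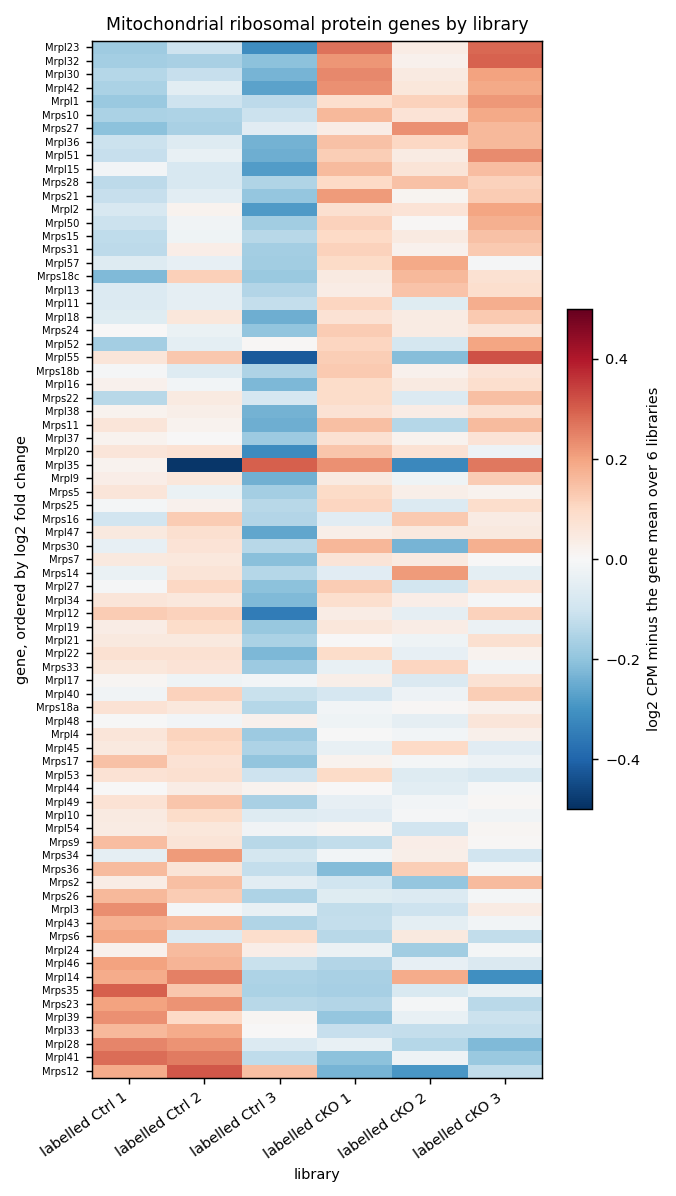
Heat map of log2 CPM minus the mean over 6 libraries (colour scale, -0.5 to 0.5) for the 77 genes (rows, ordered by log2 fold change) in each library (columns). The third Ctrl-labelled library is blue in most rows, with the lowest value in 50 of the 77 genes, and Mrpl35 departs from this pattern.

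Levels between genes were compared only as CPM per kilobase of the transcript with the longest coding sequence. On that scale the 77 genes spanned 61.8-fold around a median of 25.1. The highest were Mrpl42 (231 CPM per kb), Mrps21 (137, bS21m), Mrpl33 (112), Mrpl14 (87.9, uL14m) and Mrpl30 (84.4). The lowest were Mrps25 (3.74), Mrpl19 (4.03, bL19m), Mrpl47 (4.18, uL29m), Mrps35 (4.67) and Mrps17 (5.73, uS17m). The order at the top depended on the length used: per kilobase of all exons, Mrpl42 stood at 41.7 and Mrpl33 at 7.29, and 2 of the top 5 and 4 of the bottom 5 were shared. Mrps25 shares 69.8% of its exon bases with Nr2c2 and Mrpl19 36.0% with Gcfc2, both on the opposite strand.

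**Figure D4:**
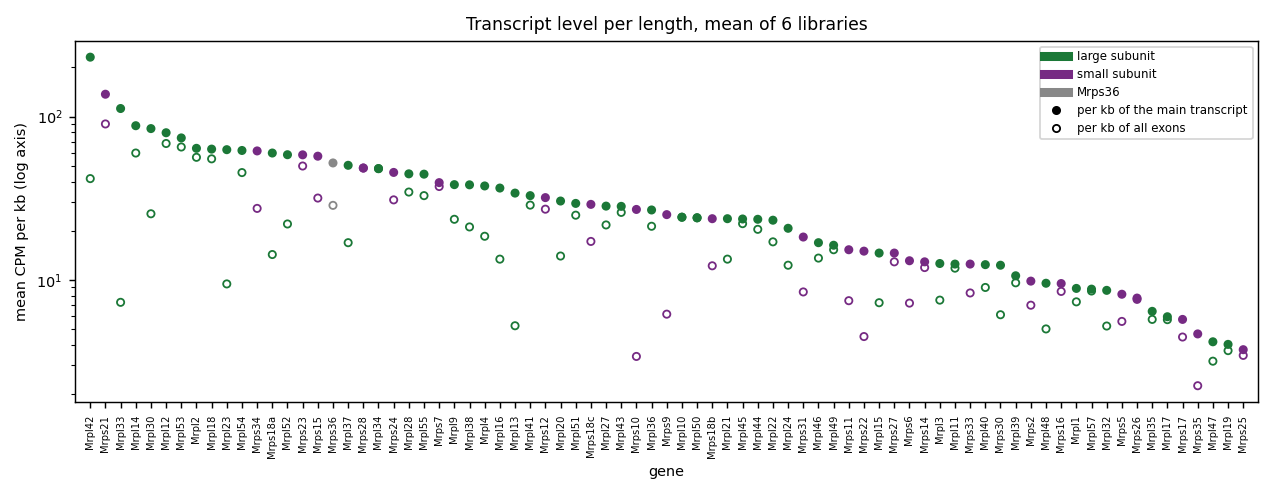
Mean CPM per kilobase over 6 libraries (y axis, log scale) for each of the 77 genes (x axis), per length of the main transcript (filled) and of all exons (open). Green is large subunit, purple small subunit and grey Mrps36; Mrpl42 is highest on the first scale at 231, and 41.7 on the second.

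Of these 10 genes, those not yet described were not called. Mrps21 had 61.3, 64.0 and 58.0 CPM in the Ctrl-labelled libraries and 76.9, 67.0 and 72.5 CPM in the cKO-labelled ones, which did not overlap (0.24, SE 0.08, adjusted p = 0.0691). Mrpl14 was spread widely within both groups, with 63.9, 66.8 and 50.4 CPM against 50.1, 63.8 and 45.4 CPM (-0.19, SE 0.16, adjusted p = 0.415). Mrps35 had 23.7, 21.2 and 17.3 CPM against 17.2, 18.3 and 18.8 CPM (-0.20, SE 0.12, adjusted p = 0.277). For Mrps25, Mrpl19, Mrpl47 and Mrps17 the log2 fold changes were between -0.02 and 0.08, with overlapping groups.

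Symbols do not always name the subunit. Mrps18a, Mrps18b and Mrps18c descend from 1 bacterial gene, and their products sit at different places, that of Mrps18a in the large subunit. Mrps18a had 55.5, 54.8 and 47.9 CPM in the Ctrl-labelled libraries and 52.4, 53.1 and 53.7 CPM in the cKO-labelled ones (0.01, SE 0.08, adjusted p = 0.945). Mrps18b had 25.4, 24.4 and 22.9 against 27.9, 25.9 and 26.7 CPM (0.15, SE 0.08, adjusted p = 0.207), and Mrps18c 15.8, 20 and 16.2 against 19.0, 20.6 and 19.4 CPM (0.18, SE 0.11, adjusted p = 0.266). None of the 3 paralogs was called, and the differences among them were not tested. Mrps30, whose product is a large-subunit protein too, had 39.4, 42.5 and 36.8 against 45.5, 34.5 and 45.9 CPM (0.08, SE 0.12, adjusted p = 0.652). Mrps36 encodes no mitoribosome protein but an adaptor of the 2-oxoglutarate dehydrogenase complex, and had 40.5, 38.0 and 33.4 against 31.2, 39.5 and 36.1 CPM (-0.07, SE 0.11, adjusted p = 0.699). Both overlapped between the groups.

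Mitoribosome proteins that go by other symbols were not called with TMM factors. These were Dap3, Chchd1, Ptcd3, Aurkaip1, Gadd45gip1 and Ict1, with 0 of 6 called and a median log2 fold change of -0.07. With total counts alone 3 of the 6 were called higher in the Ctrl-labelled libraries, against 28.7% of all genes tested. The median of the 6 was then -0.33, beside -0.27 over all genes tested. Dap3, a GTP-binding protein of the small subunit, had 53.0, 55.3 and 50.9 CPM in the Ctrl-labelled libraries and 63.2, 57.5 and 61.5 CPM in the cKO-labelled ones (0.19, SE 0.07, adjusted p = 0.0915). Gadd45gip1 ranged from 18.4 to 46.6 CPM and was lowest in the third cKO-labelled library (-0.32, SE 0.28, adjusted p = 0.437).

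Of 14 translation factors, which work with the mitoribosome, 2 (14.3%, against 24.4% of all genes tested) were called, both higher in the cKO-labelled libraries. Mtrf1, a release factor, had 10.5, 11.8 and 11.2 CPM in the Ctrl-labelled libraries and 18.9, 15.6 and 18.4 CPM in the cKO-labelled ones (0.66, SE 0.10, adjusted p = 0.00707), and Pdf, the peptide deformylase, had 51.0, 51.1 and 54.8 against 66.3, 66.1 and 61.7 CPM (0.31, SE 0.07, adjusted p = 0.0214). The elongation factors Tufm (-0.04) and Gfm1 (0.12) were not called. Of 26 genes for mitoribosome assembly and rRNA modification, 3 were higher in the cKO-labelled libraries and 1 in the Ctrl-labelled ones. These made 15.4%, against 24.4% of all genes tested. Without the third Ctrl-labelled library the counts were 3 and 4, and 10.6% of all genes were called higher in the Ctrl-labelled libraries. Malsu1, which binds the large subunit during assembly, had 22.9, 24.2 and 22.6 against 33.9, 32.8 and 30.3 CPM (0.48, SE 0.08, adjusted p = 0.00750). Rbfa, an assembly factor of the small subunit, had a log2 fold change of 0.42 (SE 0.08, adjusted p = 0.0121), and so had Fastkd2, an RNA-binding protein of large-subunit assembly (0.42, SE 0.08, adjusted p = 0.0121). Mettl15, the methyltransferase of the small-subunit rRNA, had 9.01, 8.83 and 7.27 CPM in the Ctrl-labelled libraries and 5.31, 6.10 and 5.14 CPM in the cKO-labelled ones (-0.60, SE 0.13, adjusted p = 0.0189).

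Of 18 genes for mitochondrial transcription and RNA handling, 2 (11.1%, against 24.4% of all genes tested) were called, both higher in the cKO-labelled libraries, as 12.6% of all genes tested were. Tfb2m, a transcription factor of the mitochondrial polymerase, had 39.2, 37.2 and 37.2 CPM in the Ctrl-labelled libraries and 48.6, 50 and 50.9 CPM in the cKO-labelled ones (0.40, SE 0.06, adjusted p = 0.00752). Tfam, which packs the mitochondrial genome and starts its transcription, had 40.7, 42.6 and 40.6 against 46.2, 50.4 and 51.4 CPM (0.26, SE 0.07, adjusted p = 0.0398). The groups were separate in both genes. With TMM factors none of 9 regulators of nuclear genes for mitochondria was called. Among them, Nrf1 (0.04), Gabpa (0.02), Yy1 (0.15) and Ppargc1a (-0.21) all had adjusted p of 0.173 or more. With total counts alone 1 of the 9 was called higher in the Ctrl-labelled libraries, against 28.7% of all genes tested.

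The 2 larger lists had the same median as the 77 genes (-0.19 and -0.18 with total counts alone). Among 80 nuclear-encoded subunits of the respiratory chain and ATP synthase, 2 were called higher in the cKO-labelled libraries and 3 in the Ctrl-labelled ones. These made 6.25%, against 24.4% of all genes tested, and the median was 0.07. Without the third Ctrl-labelled library the counts were 1 and 9, and 10.6% of all genes were called higher in the Ctrl-labelled libraries. The 2 were Ndufa12 (0.47, adjusted p = 0.0127) and Ndufb4 (0.34, adjusted p = 0.0291), both of complex I. The 3 were Cox8a (-0.63, adjusted p = 0.00352) and Cox6a1 (-0.56, adjusted p = 0.0159), forms of cytochrome c oxidase subunits that many tissues share, and Ndufb3 (-0.38, adjusted p = 0.0481). Among 77 cytosolic ribosomal proteins, 7 were called higher in the cKO-labelled libraries and 3 in the Ctrl-labelled ones, again with a median of 0.07. Those called made 13.0%, against 24.4% of all genes tested. The largest of these was Rpl3 (log2 fold change -1.01, SE 0.20, adjusted p = 0.0136), beside its muscle paralog Rpl3l (0.27, SE 0.11, adjusted p = 0.112), which was not called. In the lists for translation, assembly, transcription, respiratory chain and cytosolic ribosome, 1 gene was called higher in the cKO-labelled libraries with total counts alone. It was a translation factor. Called higher in the Ctrl-labelled libraries were 2 of 14 translation factors, 5 of 26 assembly genes and 2 of 18 genes for transcription and RNA handling. So were 10 of 80 respiratory chain subunits and 23 of 77 cytosolic ribosomal proteins. Over all genes tested, 4.75% were called higher in the cKO-labelled libraries with that scaling and 28.7% in the Ctrl-labelled ones.

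**Figure D5:**
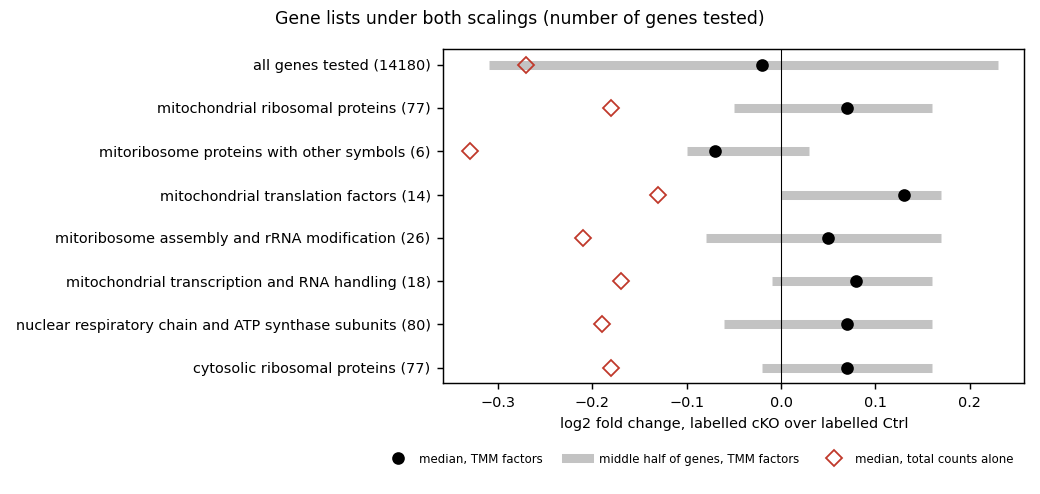
Median log2 fold change (labelled cKO over labelled Ctrl, x axis) of each gene list (y axis, number of genes tested) with TMM factors (filled circles, grey bars from the lower to the upper quartile of genes) and with total counts alone (open diamonds). The 77 genes lie at 0.07 and -0.18, and all genes tested at -0.02 and -0.27.

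The 77 genes are spread over 17 autosomes, with at most 10 on 1 chromosome, and 33 of them (42.9%) start within 1000 bases of the start of a protein-coding gene on the opposite strand. In 18 the starts lie back to back, with no overlap of the genes, and in 15 the first bases of the genes overlap, as in Mrpl46 and Mrps11, both members, whose starts are 412 bases apart. Neighbours were matched by their GENCODE symbol, and Twnk beside Mrpl43 was not listed under that symbol. Of the 12 overlapping neighbours matched and tested, 1 (8.33%) was called, Rab6a beside Mrpl48 (0.34, SE 0.08, adjusted p = 0.0268). Of the 17 back-to-back neighbours that were tested, 4 were called (23.5%, near the 24.4% of all genes tested), and in 0 of the pairs of either kind were both genes called. Hira, a histone chaperone 175 bases from Mrpl40, was higher in the cKO-labelled libraries (0.36, SE 0.07, adjusted p = 0.0162), while Mrpl40 stood at 0.01. Ppp1r10 beside Mrps18b (-0.46, SE 0.10, adjusted p = 0.0191), Klc4 beside Mrpl2 (-0.32, SE 0.08, adjusted p = 0.0256) and Eme2 beside Mrps34 (-0.72, SE 0.17, adjusted p = 0.0248) were higher in the Ctrl-labelled libraries, while the mitoribosome genes had 0.15, 0.23 and -0.06. The called Mrpl32 starts 75 bases from Psma2, a proteasome subunit (0.16, SE 0.06, adjusted p = 0.113), and Mrpl30 66 bases from Mitd1 (-0.47, SE 0.21, adjusted p = 0.145). The difference within a pair was not tested.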

How the data were processed

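Bulk RNA-Seq of GP muscle from 6 mice was analysed. Per the labels and the methods, RNA was taken with a column kit, libraries were made with an mRNA kit, and reads were trimmed with Trimmomatic 0.39, aligned to mm10 with HISAT2 2.1.0 and counted with featureCounts 1.6.2. The annotation and strand setting were not given in the sources used here. The authors deposited 1 table of raw counts per library, with no normalization, for 24421 gene symbols. Groups came from the labels. The members of the set and all gene lists were chosen with earlier results of these data known.

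Tests used edgeR 4.0.16 in R 4.3.3 (TMM factors, filterByExpr, glmQLFit, glmQLFTest, 3 against 3 libraries, no covariate, Benjamini-Hochberg adjustment over 14180 genes). The threshold for a call was an adjusted p of 0.05. P-values measure the spread between mice. CPM used TMM factors. Standard errors and 95% intervals were derived from the test. The steps were tested on simulated data. Counting error was exceeded between replicates (chi-square per degree of freedom 29.5 to 101), so no library repeated another. Named genes were those called, the 5 highest and 5 lowest by log2 fold change and by CPM per kilobase, the Mrps18 paralogs, Mrps30, Mrps36 and called genes of the lists. Mrps23, Mrpl35, Mrpl55, the neighbouring genes, the uncalled genes of other lists and the promoters shown were chosen after their values were seen. Alternatives were scaling by the size factors of DESeq2 1.42.0 or by totals, the Wald test of that tool, no filter or a minimum of 10 counts per library, a block for mouse number, leaving out 1 library at a time and a fold change over 2. Positions came from GENCODE M21 on GRCm38, and promoters from RefSeq.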

Additional observations from a re-analysis of the deposited data

How the results depend on the processing

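The count of genes called higher in the cKO-labelled libraries (9) was 9 with DESeq2's size factors (1820 of all genes), 10 with the Wald test of DESeq2 (2108), 6 with no filter (1714) and 8 with a minimum of 10 counts per library (1739), against 1786 of all genes with the settings of the report, and Mrps12 was called in all 12 other fits. With total counts alone, 0 and 18 of the 77 genes were called higher in the cKO-labelled libraries and labelled Ctrl (673 and 4074 of all genes), and the median was -0.178; log2 fold changes turned to -0.22 (Mrpl19), -0.17 (Mrpl47), -0.25 (Mrps18a), -0.11 (Mrps18b), -0.07 (Mrps18c), -0.02 (Mrps21), -0.18 (Mrps25), -0.02 (Mrps28) and -0.18 (Mrps30). At least 10 counts in every library gave 2 higher in the Ctrl-labelled libraries (1603 of all genes). A fold change over 2 left 0 and 0 (302 and 556 of all genes). The mouse numbers share only a number: correlations of same-numbered deviations were 0.084, -0.215 and -0.002. Only the library of mouse 1 labelled Ctrl correlated best with its own number. With the replicate block, 0 and 1 of the 77 genes were called (927 and 972 of all genes). Leaving out 1 library gave 0 to 5 and 1 to 5 of the 77 genes (766 to 1777 and 788 to 1808 of all genes) and medians from 0.00 to 0.117. These fits gave -0.04 to 0.09 for Mrpl19, -0.02 to 0.14 for Mrpl47, -0.11 to 0.05 for Mrps17, -0.05 to 0.05 for Mrps18a, -0.00 to 0.19 for Mrps30 and -0.16 to 0.01 for Mrps36. Causes of these changes were not tested. Each gene had 356 or more counts in every library, with 3 mice per group. How much of the SE comes from counting and how much from the spread between mice was not tested.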

Other observations

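Mrpl35, a large-subunit protein with a bacterial homologue (bL35m), had the widest spread of the 77 genes over the 6 libraries, 1.73-fold between the highest and the lowest. Its levels were 23.7, 16.7 and 28.8 CPM in the Ctrl-labelled libraries and 27.4, 18.7 and 28.1 CPM in the cKO-labelled ones, with the mouse numbered 2 lowest in each group. Its log2 fold change was 0.10 (SE 0.23, adjusted p = 0.768). Mrpl55 (bL31m) followed with 34.6, 36.4 and 24.8 CPM against 36.1, 28.6 and 41.4 CPM, 1.67-fold between the highest and the lowest. The median of this ratio over the 77 genes was 1.26, and it was lowest in Mrpl44, at 1.06.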
